A study of Canis lupus familiaris with 17 samples.

Results

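IDO1, ACOD1 and NOS2 encode enzymes through which activated myeloid and tumour cells change the metabolites around them, and they were followed across the 4 groups of a study of dog soft tissue sarcoma. They are 3 of the 780 endogenous genes of the nCounter Canine IO panel, found by probe name, with 1 probe each. They were chosen by their normalized counts in these groups, known from earlier work on the same data. Those counts, and the changes between groups made from them, are therefore given as a description with no test.

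The panel counts colour-barcoded probes bound to RNA from formalin-fixed, paraffin-embedded tumour, without amplification. The 7 untreated tumours came from archived tissue. The perivascular wall type made up 4 of them and the peripheral nerve sheath type 3. The 10 treated tumours, also from client-owned dogs, were injected with collagen-binding forms of the cytokines IL-2 and IL-12. Of these, 3 were excised 2 days after 1 dose (2 peripheral nerve sheath tumours and 1 myxosarcoma). Another 3 were excised 8 days after 1 dose (1 perivascular wall tumour, the rest peripheral nerve sheath tumours). The last 4 had another dose on day 6 and were excised on day 8, 2 days after it (3 peripheral nerve sheath tumours and 1 fibrosarcoma). Each tumour is from a different dog. Archiving went with the untreated state, and sarcoma type was unbalanced, so neither can be told apart from treatment where they go together.

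IDO1 converts tryptophan to kynurenine, which starves T cells of the amino acid and feeds a suppressive ligand. ACOD1, the enzyme once called IRG1, makes itaconate from an intermediate of the citric acid cycle in activated macrophages. NOS2, inducible nitric oxide synthase, makes nitric oxide from arginine. In mouse macrophages interferon-gamma, the cytokine that IL-12 draws from T and NK cells, induces all of them, in part through the transcription factor IRF1.

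Endogenous totals were between 1016527 and 1752729 counts in 15 tumours, and 126997 and 205118 in replicate C of the day 2 group and replicate D of the 2-dose group. Those low-count tumours stand apart, and values without them follow where they differ. The geometric mean of the positive controls was 2235 in day 2 replicate C and 69.8 in 2-dose replicate D. These were the highest and lowest of the 17 tumours. Endogenous probes above background numbered 607 and 416. To normalize, each raw count was scaled by the tumour's geometric mean over 20 housekeeping probes. That mean was 489 to 686 in the untreated group and 526.5 to 709 in the day 8 group. It was 61.9 to 281 in the day 2 group and 55.1 to 643 in the 2-dose group. The background threshold of a tumour was 2 SD over the mean of its 8 negative controls. The mesenchymal genes VIM, COL1A1, COL3A1 and PDGFRB were above background in 17 of 17 tumours. The Schwann cell genes SOX10 and S100B were above background in 4 and 15 of 17. The epithelial genes EPCAM, CDH1 and KRT14 were above background in 15, 13 and 14 tumours. In bulk tissue, fewer cells of a type and less RNA per cell cannot be told apart.

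In untreated tumours IDO1 ranged from 8.46 to 118 normalized counts with a median of 35.6, and it was above background in 4 of 7. On day 2 after 1 dose it measured 70905 in replicate A, 12750 in B and 18197 in C. On day 8 it measured 20.5 in replicate A, 122 in B and 153 in C. The day 2 tumours were all far above the untreated range. Of the day 8 tumours, B and C lay just above it, and A lay inside it, barely over its background threshold of 18.6. After 2 doses IDO1 measured 2163 in replicate A, 32710 in B, 468 in C and 23723 in D. These 4 tumours lay above every untreated and day 8 tumour, and B and D above the lowest day 2 tumour. Group means were 48.0 ± 44.9 (SD, n = 7) untreated, 33951 ± 32119 (n = 3) on day 2, 98.3 ± 69.1 (n = 3) on day 8 and 14766 ± 15974 (n = 4) after 2 doses.

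ACOD1 followed the same course. It ranged from 10.7 to 33.3 in untreated tumours, with a median of 24.4 and 5 of 7 above background. On day 2 it measured 3176 in replicate A, 1932 in B and 820 in C. On day 8 it measured 17.1, 21.6 and 16.5 in replicates A, B and C, above background in 0 of 3, so these values give only an upper bound. After 2 doses it measured 153 in replicate A, 2806 in B, 50.9 in C and 2116 in D. As for IDO1, both groups taken 2 days after a dose lay above all untreated and day 8 tumours. Means were 22.0 ± 8.40 (SD, n = 7), 1976 ± 1178 (n = 3), 18.4 ± 2.78 (n = 3) and 1282 ± 1391 (n = 4) in the same order of groups.

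NOS2 followed it over a narrower fold range. All 7 untreated tumours had it above background, at 53.4 to 105 with a median of 74.6. On day 2 it measured 1634 in replicate A, 172 in B and 726 in C, all above the untreated range. On day 8 it measured 36.8, 126 and 92.8, around that range. After 2 doses it measured 107 in replicate A, 929 in B, 80.3 in C and 325 in D. Replicate C fell inside the untreated range and A at its upper edge, and the count in D was below that tumour's own threshold of 338. Means were 78.8 ± 18.8 (n = 7), 844 ± 738 (n = 3), 85.4 ± 45.3 (n = 3) and 360 ± 395 (n = 4).

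**Figure D1:**
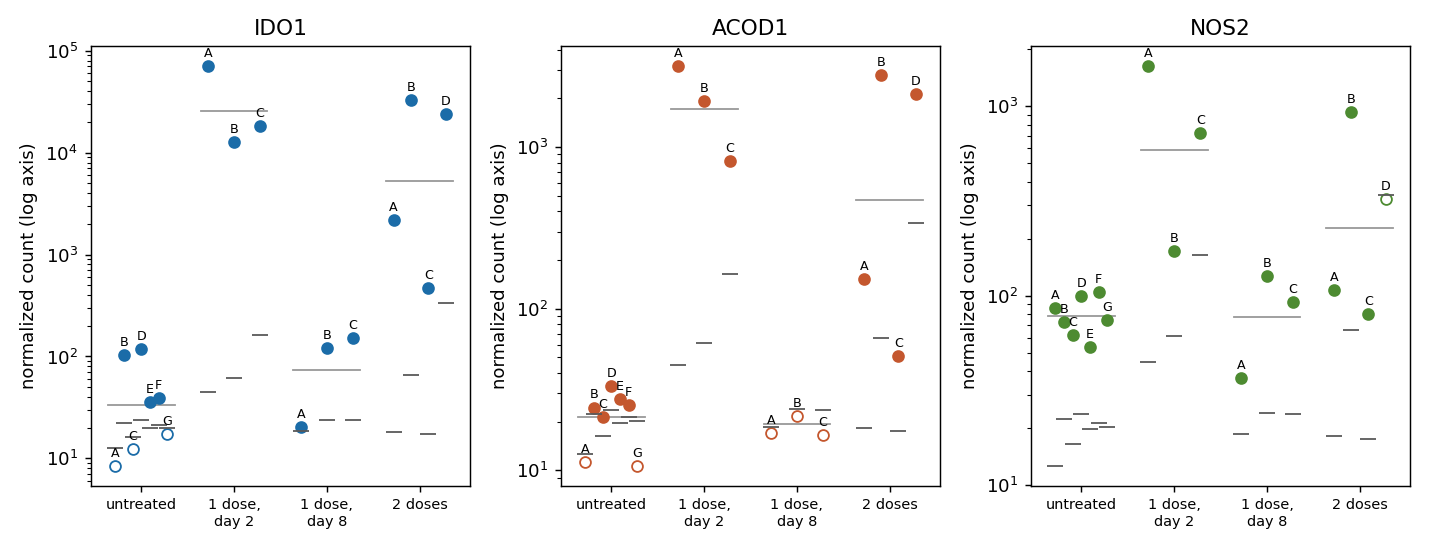
Normalized count (log axis) of IDO1, ACOD1 and NOS2 in each of 17 tumours by group, with letters for replicates. Filled points are above background and open points are not. Short dashes are each tumour's background threshold, and long grey lines are group geometric means of the normalized count + 1. The day 2 tumours and replicates B and D of the 2-dose group are high for IDO1 and ACOD1, and the day 8 tumours are close to the untreated ones, with IDO1 at 122 and 153 in B and C against an untreated highest of 118.

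The order of group means was the same for IDO1 and NOS2, with day 2 highest, then 2 doses, day 8 and untreated. For ACOD1 day 8 came last. Day 2 and 2-dose values overlapped for each gene, as did day 8 and untreated values, so the order within those pairs is not larger than the spread between tumours.

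The day 2 tumours address the early response to 1 dose. Relative to untreated tumours the fitted log2 change was 9.46 (SE 1.21) for IDO1, 6.49 (SE 0.83) for ACOD1 and 3.42 (SE 0.65) for NOS2. The median of all 724 tested probes was 1.23 on the same scale, and 47.8% of them were called higher and 2.62% lower. By size of rise IDO1 ranked 1 of the 724, ACOD1 6 and NOS2 54. Since these values chose the genes, the ranks describe them and support nothing. Scaling by TMM, which takes the typical probe as unchanged, gave 8.55, 5.49 and 2.33 with a median of 0.25, and calls of 170 higher and 114 lower in place of 346 and 19. Without the low-count tumours the changes were 9.77, 6.85 and 3.52. Part of each fold of IDO1 and ACOD1 rests on untreated counts near background. With background subtracted, the changes were 9.79 (SE 1.48) and 7.28 (SE 1.07).

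The day 8 tumours show the levels 8 days after 1 dose. Against untreated the log2 change was 1.03 (SE 1.02) for IDO1, -0.25 (SE 0.84) for ACOD1 and 0.11 (SE 0.68) for NOS2, each about as large as its SE or smaller. Of all probes 0% were called by edgeR, with 33 at an unadjusted p under 0.05. DESeq2 and limma also called 0, with 72 and 30 at an unadjusted p under 0.05. Against day 2 the changes were -8.43 (SE 1.72), -6.74 (SE 1.21) and -3.31 (SE 0.88). That of ACOD1 rests on day 8 counts at background, which set its size, and was -8.22 with background subtracted. In this comparison 19.2% of probes were called lower and 0.414% higher, around a median of -1.13. TMM scaling gave 54 lower and 27 higher calls in place of 139 and 3. These comparisons share the day 8 tumours, and those with untreated share the untreated tumours.

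The 2-dose tumours show the levels 2 days after a repeated dose. Against untreated the log2 change was 8.26 (SE 1.14) for IDO1, 5.85 (SE 0.79) for ACOD1 and 2.19 (SE 0.61) for NOS2, where 33.3% of probes were called higher and 0.414% lower around a median of 0.63. TMM scaling gave 156 higher and 36 lower calls in place of 241 and 3. Without the low-count tumours the changes were 7.94, 5.50 and 2.23, and without replicate B that of NOS2 was 1.06. Against day 8, the same day after the first dose, the changes were 7.23 (SE 1.61), 6.11 (SE 1.16) and 2.08 (SE 0.81). The size for ACOD1 is again set by day 8 counts at background, and was 7.59 with background subtracted. NOS2 was 0.94 without replicate B. Against day 2 they were -1.20 (SE 1.15), -0.63 (SE 0.87) and -1.23 (SE 0.75), and edgeR called 0% of probes, with 88 at an unadjusted p under 0.05, while DESeq2 called 6 and limma 1. The size of this difference varied with the tumours included and with the method. Without replicate A of the day 2 group it was -0.07 for IDO1, -0.11 for ACOD1 and -0.30 for NOS2. Without replicate B of the 2-dose group it was -1.95, -1.38 and -2.36. Without the low-count tumours it was -1.83, -1.35 and -1.28, and in nerve sheath tumours alone -1.92, -0.9985 and -1.67. In limma, which averages log2 values, it was -2.20 (SE 1.32) for IDO1 and -1.94 (SE 1.05) for ACOD1. Group means of log2(normalized count + 1) for IDO1, ACOD1 and NOS2 were 12.37, 8.87 and 7.83 after 2 doses. On day 2 they were 14.63, 10.74 and 9.21.

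**Figure D2:**
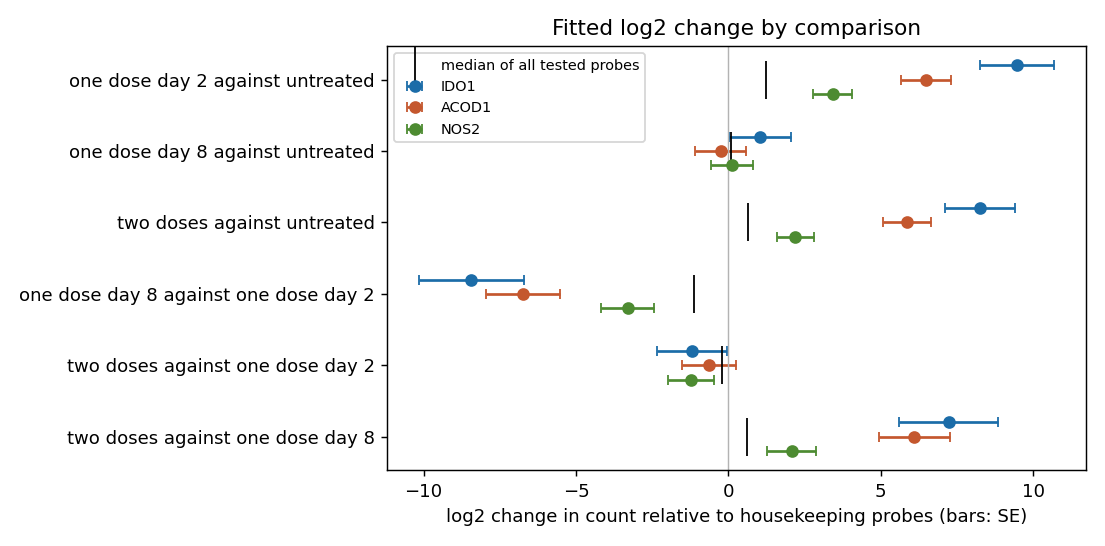
Fitted log2 change (x axis, relative to housekeeping probes) of IDO1, ACOD1 and NOS2 in 6 comparisons, with bars of 1 SE and black ticks at the median of all 724 tested probes. The changes on day 2 run from 3.42 to 9.46, and those of day 8 against untreated from -0.25 to 1.03.

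The 2-dose tumours differed widely among themselves. The highest over the lowest was 70.0-fold for IDO1, 55.2-fold for ACOD1 and 11.6-fold for NOS2, against a median of 4.44-fold over tested probes. As a share of the endogenous total, which does not use the housekeeping probes, the spreads were 48.9, 38.6 and 8.09-fold against a median of 3.66. Replicates ran C, A, D, B from low to high for each of the genes, an order shared by 18.6% of tested probes. The high tumours B and D had housekeeping geometric means of 297 and 55.1, and the low tumours A and C of 643 and 608. In the day 2 group these were 280, 281 and 61.9. The part of housekeeping level in this spread was not tested. By share of total the order was again C, A, D, B for each gene, and by raw count it was C, D, A, B for IDO1, C, A, D, B for ACOD1 and D, C, A, B for NOS2. IDO1 made up 164, 1973, 40.3 and 1317 of every 100000 endogenous counts in replicates A, B, C and D, against 0.900 to 9.58 in untreated tumours.

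Ratios between the genes within a tumour need no scaling, though probes differ in efficiency, so only their change between tumours can be read. IDO1 over ACOD1 was 14.1, 11.7, 9.19 and 11.2 in replicates A to D after 2 doses, a 1.54-fold range while IDO1 varied 70.0-fold. On day 2 it was 22.3 in replicate A, 6.60 in B and 22.2 in C. On day 8 it was 1.20, 5.64 and 9.22 in replicates A, B and C, where ACOD1 was not above background. Replicates B and C of day 8 thus overlapped the tumours taken 2 days after a dose or came close to them. In untreated tumours the ratio was 0.586 to 4.26, with counts near background. IDO1 over NOS2 was 0.0984 to 1.44 untreated, 0.556 to 1.64 on day 8, 25.1 to 74.0 on day 2 and 5.82 to 73.0 after 2 doses. Each tumour taken 2 days after a dose thus had a higher IDO1 to NOS2 ratio than each other tumour. ACOD1 over NOS2 was highest in the myxosarcoma (replicate B of day 2) at 11.2, where NOS2 was lowest of that group, and in the fibrosarcoma (replicate D of 2 doses) at 6.51, where NOS2 was below background.

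**Figure D3:**
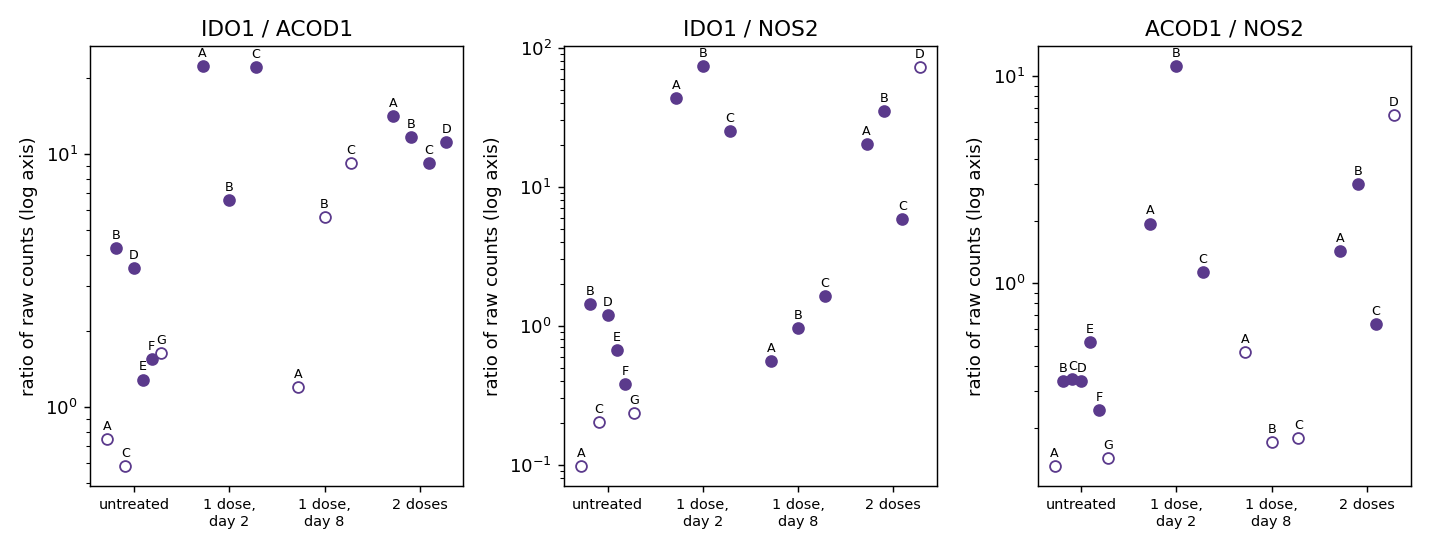
Ratio of raw counts (log axis) between pairs of the genes in each tumour, by group, with letters for replicates and open points where either gene was not above background. IDO1 over ACOD1 lies between 9.19 and 14.1 in the 4 tumours given 2 doses, and IDO1 over NOS2 between 5.82 and 74.0 in all 7 tumours taken 2 days after a dose.

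Among untreated tumours, where neither sarcoma type nor the spread within the group was used to choose the genes, tests are possible. Perivascular wall tumours (n = 4) minus peripheral nerve sheath tumours (n = 3) differed by -0.65 log2 for IDO1, 0.20 for ACOD1 and -0.18 for NOS2. Exact two-sided permutation gave p = 0.571, 0.686 and 0.514, each 0.686 after adjustment, and the smallest p this design allows is 0.0571. Over 676 probes edgeR called 0 between the types, with 27 at an unadjusted p under 0.05. Restricted to nerve sheath tumours, which were in every group, IDO1 was 17.5 to 104 untreated (n = 3), 18197 and 70905 on day 2, 122 and 153 on day 8, and 468 to 32710 after 2 doses (n = 3).

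Of 9 relations planned among the enzymes and genes of the interferon-gamma path in the 7 untreated tumours, 5 were computed, since IDO1 was above background in too few. None of the 5 passed, with p-values adjusted over them, and 3 are given here. ACOD1 with IRF1 gave r = 0.66 and rho = 0.75 (exact permutation p = 0.137 and 0.0663, adjusted 0.54 and 0.274), and r = 0.82 without the 2 tumours farthest from the median of ACOD1. NOS2 with IRF1 gave r = 0.44 and rho = 0.43 (exact permutation p = 0.327 and 0.354), and r = 0.71 without 2. ACOD1 with NOS2 gave r = 0.03 and rho = 0.11 (exact permutation p = 0.948 and 0.84), and r = 0.43 without 2. Under TMM scaling ACOD1 with NOS2 and NOS2 with IRF1 changed sign. ACOD1 with IRF1 fell to r = 0.30, and to r = -0.06 without the 2 tumours, so these relations depend on the housekeeping probes.

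The interferon-gamma path had 9 measured genes besides the enzymes, and 7 were called higher on day 2 and 6 after 2 doses, with list medians of 3.42 and 2.80 log2 against 1.23 and 0.63 over all probes. Under TMM scaling 6 were called higher in each. The share of all probes called higher was 47.8% and 33.3%, and 170 and 156 of 724 under TMM scaling. IFNG itself was 726, 351 and 164 in replicates A, B and C on day 2, and 36.8, 1756, 23.9 and 1686 in replicates A to D after 2 doses, and it was above background in none of the untreated or day 8 tumours. In edgeR the day 2 rise of IFNG was 5.58 log2 (SE 0.91, adjusted p = 0.000247), a fold that depends on the background. IRF1 rose by 5.43 (SE 0.68) and SOCS1, a feedback inhibitor of the path, by 3.42 (SE 0.54). CIITA, which switches on MHC class II genes, rose by 3.83 (SE 0.57), IRF8, a myeloid transcription factor, by 3.68 (SE 0.70), and the kinase JAK2 by 1.02 (SE 0.38). The receptor chain IFNGR1 and the kinase JAK1 were not called, at 0.06 (SE 0.38) and 0.12 (SE 0.38). JAK2 was at -0.02 under TMM scaling and not called after 2 doses. On day 8 against day 2, 6 of the 9 fell, and 0 were called against untreated.

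**Figure D4:**
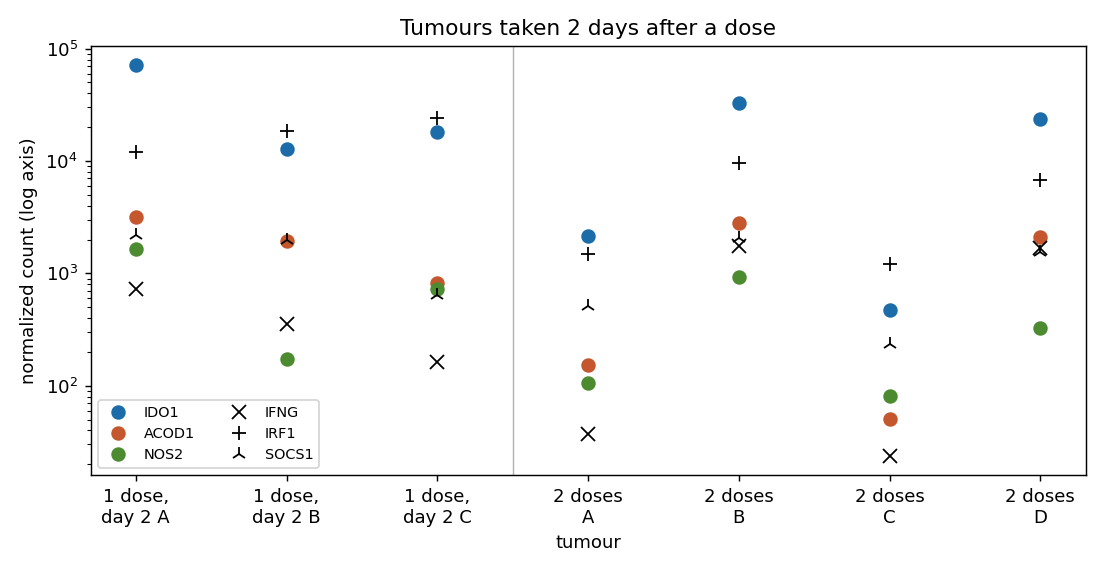
Normalized count (log axis) of IDO1, ACOD1, NOS2 and 3 interferon-gamma path genes in the 7 tumours taken 2 days after a dose. Replicates A and C of the 2-dose group are below the other 5 tumours for all 6 genes, with IFNG at 36.8 and 23.9 against 1756 and 1686 in B and D.

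Other genes of the same metabolism were few on the panel. IDO2, a weaker relative of IDO1, was the only other tryptophan gene, and was not called in any comparison, at 0.68 log2 (SE 0.59) on day 2, 1.33 (SE 0.57) on day 8 and 0.23 (SE 0.54) after 2 doses. Its direction on day 2 turned to -0.28 under TMM scaling and -0.36 without the low-count tumours, and after 2 doses to -0.18 under TMM scaling. The arginases compete with NOS2 for arginine. ARG2 rose by 1.39 (SE 0.55, adjusted p = 0.0446) on day 2 and 1.58 (SE 0.51) after 2 doses, but was not called under TMM scaling, at 0.33 on day 2, or without the low-count tumours. ARG1 was not called, at 0.30 (SE 0.55) and 0.81 (SE 0.49). Of 4 genes tied to itaconate targets and oxidant production, 3 rose in each of these comparisons (3 and 2 under TMM scaling). Over all probes 47.8% and 33.3% were called higher, and 170 and 156 of 724 under TMM scaling. Those that rose included NCF4, an oxidase subunit, by 2.64 (SE 0.57) and 2.05 (SE 0.53), and NLRP3, an inflammasome sensor, by 2.75 (SE 0.55) on day 2. CYBB, the catalytic oxidase subunit, rose by 2.50 (SE 0.62) and 2.79 (SE 0.59).

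Of 36 genes of Toll-like receptor, NF-kappa-B and TNF signalling, 15 rose on day 2 and 9 after 2 doses (4 and 2 under TMM scaling, where 6 and 1 fell). These are smaller shares than the 47.8% and 33.3% of all tested probes called higher, and the list medians of 0.83 and 0.50 log2 stand beside 1.23 and 0.63 over all probes. TNF rose by 2.59 (SE 0.57) and the RNA sensor TLR8 by 2.67 (SE 0.66) on day 2. IL6 rose by 3.67 (SE 1.26) after 2 doses. Of 12 Th2, IL-10 and TGF-beta genes 4 and 2 rose, also smaller shares than over all probes, including IL10RA by 1.96 (SE 0.50) and 1.70 (SE 0.47), and under TMM scaling 2 and 0 rose while 2 and 2 fell. Of 8 other suppressive mediators 1 rose in each comparison, again under the share over all probes, the ectonucleotidase ENTPD1 by 1.09 (SE 0.44) on day 2 and the adenosine receptor ADORA2A by 1.80 (SE 0.55) after 2 doses, and under TMM scaling 0 rose and 1 fell in each.

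Markers of cell types were read against the same 47.8% and 33.3% of all probes called higher on day 2 and after 2 doses. Of 20 macrophage and monocyte markers 8 rose on day 2 and 9 after 2 doses (4 and 3 under TMM scaling, where 0 and 2 fell), among them the monocyte receptor CCR2 by 3.21 (SE 0.66) and 2.82 (SE 0.63) and the complement gene C1QB by 2.69 (SE 0.74) and 2.32 (SE 0.70). Their summed normalized count spanned 3981 to 31899 among untreated tumours and 22860 to 75246 on day 2. It spanned 15797 to 21605 on day 8 and 14001 to 60132 after 2 doses. The 8 and 9 called markers are below the share over all probes on day 2 and above it after 2 doses. Under TMM scaling 170 and 156 of 724 probes were called higher, and the 4 and 3 macrophage markers are below that share in both. CD68 rose by 1.62 (SE 0.46) after 2 doses, and CD163 was not called, at -0.65 (SE 0.74) on day 2. Of 13 neutrophil markers 5 and 8 rose, likewise below and above the share over all probes. Under TMM scaling 1 and 2 rose, below the share in both. Their sum was 1781, 43962, 1962 and 38982 in replicates A to D after 2 doses, high in the tumours where IDO1 and ACOD1 were high. The macrophage, dendritic, and T and NK sums were also highest in B and D, and the endothelial sum lowest there. S100A9 rose by 3.91 (SE 1.37) and S100A12 by 3.86 (SE 1.34) after 2 doses. Untreated neutrophil sums were 1228 to 10324, day 2 sums 3012 to 7108 and day 8 sums 1088 to 1559. They were 10324 and 9318 in untreated replicates A and D, where IDO1 was 8.46 and 118.

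Of 9 dendritic cell markers 6 and 4 rose (4 and 2 under TMM scaling), including XCR1 by 2.80 (SE 0.47) after 2 doses. Both counts are above the share over all probes. Of 22 T and NK cell markers 18 rose in each comparison (14 and 15 under TMM scaling), also above it, including GZMB by 6.60 (SE 0.86) and 8.30 (SE 0.90). Their sum spanned 1147 to 2283 among untreated tumours, 6817 to 8787 on day 2, 2001 to 2518 on day 8, and 3802 to 29983 after 2 doses. CD3E rose by 2.89 (SE 0.60) and 3.23 (SE 0.58), and CD8A by 3.34 (SE 0.66) and 3.63 (SE 0.63). XCR1, GZMB and CD8A were each above background in 4 of 7 untreated tumours, so their folds depend on the background. Of 7 endothelial markers 1 rose in each comparison, below the share over all probes. That marker was SELE, by 1.66 (SE 0.65) and 1.88 (SE 0.59), and PECAM1 was not called, at -0.10 (SE 0.51) on day 2. Under TMM scaling 0 of the 7 rose in either comparison and 1 fell on day 2. Without the low-count tumours 264 and 174 of 722 probes were called higher on day 2 and after 2 doses. The markers called higher then numbered 8 and 4 for macrophages, 3 and 3 for neutrophils and 5 and 2 for dendritic cells. They numbered 17 and 15 for T and NK cells and 0 and 1 for endothelium. After 2 doses only the T and NK count is above the share of all probes, and the others are below it. On day 2 the neutrophil and endothelial counts are below it and the others above. No marker in these lists had a count of 0 in any tumour. The part of cell content in the levels of the enzymes was not tested.

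With the 3 enzymes left out, the probes nearest to each in course and size of change were ranked over the 17 tumours. The measure was the root mean square difference of centred log2 counts. The counts were not scaled to a common spread. For IDO1 the nearest probes were CXCL10 (0.95), GBP5 (1.15), IFGGC1 (1.31), CCL8 (1.47) and GZMB (1.75), against a median of 3.89 over tested probes. CXCL10 is a T cell chemokine and GBP5 a guanylate-binding protein. For ACOD1 they were IFNG (0.67), GBP5 (0.77), CCL8 (0.83), FCER2 (0.95) and IRF1 (1.06), against a median of 2.62. For NOS2 they were CXCL11 (0.52), LOC490356 (0.67), LOC481722 (0.71), CX3CL1 (0.71) and DLA-DOB (0.75), against a median of 1.35. GBP5 and CCL8 were near both IDO1 and ACOD1, and no probe was among the 5 nearest of both NOS2 and another enzyme. Between the enzymes themselves, IDO1 and ACOD1 differed by 1.64, so ACOD1 was nearer to IDO1 than GZMB was. NOS2 differed by 1.84 from ACOD1 and by 3.10 from IDO1. The SD over the 17 tumours was 4.45 log2 for IDO1, 3.06 for ACOD1 and 1.53 for NOS2. Genes of unlike spread lie apart by this measure whatever their course, so the lack of shared probes does not show a different course. These 17 tumours include the group differences, so the likeness mostly describes the course over groups and its size.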

How the data were processed

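RNA of 17 tumours was counted on the nCounter Canine IO panel. Per the file headers, the authors' deposited raw files hold counts per probe without normalization. A deposited value table gives a normalized signal by the authors; its nSolver version is not given in the sources used here. Over well-counted probes it equals the raw count times 1 factor per tumour (0.898 to 11.6). Untreated and 2-dose tumours also carry a factor per probe, of 0.06, -0.06 and -0.01 log2 for IDO1, ACOD1 and NOS2. Day 2 and day 8 tumours lack it for these genes. The main fit used raw counts without this factor, so comparisons between these pairs of groups cross that split. A further normalized table has 17 columns that match no label and was not used.

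Raw counts of the 724 of 780 endogenous probes above background in at least 3 tumours were fitted in edgeR 4.0.16 (R 4.3.3, robust quasi-likelihood F-test), 4 groups in 1 model, with the geometric mean of 20 housekeeping probes as library size. A probe was called at an adjusted p (Benjamini-Hochberg) under 0.05. The SE of a log2 change was worked back from the test, as its size over the square root of F. The fit was also run on simulated counts with a common spread and smaller changes than those of the enzymes on day 2. That setting differs from these tumours, so the run does not show how the fit performs here. Permutation tests used log2(normalized count + 1) in scipy 1.17.1. Intervals between tumours are SD or SE, and each group has few tumours, which limits precision.

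Members and lists were chosen with earlier results of these data known. The lists were tryptophan, arginine, itaconate and redox, interferon-gamma, Toll-like receptor and NF-kappa-B, Th2 and IL-10, suppressive mediators, and macrophage, neutrophil, dendritic, T and NK, and endothelial markers. Named were all measured genes of the tryptophan, arginine and interferon-gamma lists, and defining markers. Also named were up to 2 largest called rises and falls of each other list against untreated, with a mean of at least 50 counts. The 5 probes nearest each enzyme, the enzymes themselves left out, were named too. Alternatives were TMM, median-of-ratios and endogenous total scaling, DESeq2 1.42.0, limma 3.58.1 on the deposited signal, background subtraction, no filter, sarcoma type, nerve sheath tumours alone, the replicate letter as a block, and leaving out tumours. Endogenous total scaling, shares of total, ratios and within-group spreads were added after seeing the data. Results of 1 gene named by the rule are not reported here.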

Additional observations from a re-analysis of the deposited data

How the results depend on the processing

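IDO1 and ACOD1 kept a positive change on day 2 and after 2 doses under all 28 alternatives each, at 8.33 to 11.07 and 7.31 to 8.67 log2 for IDO1, and 5.46 to 7.28 and 4.51 to 6.65 for ACOD1. NOS2 kept 2.27 to 3.91 and 1.06 to 2.53, and its change on day 8 against untreated lay on both sides of 0, from -0.29 to 0.48. Background limits ACOD1 on day 8, above it in 0 of 3 tumours, and IDO1 in untreated tumours, above it in 4 of 7. ACOD1 on day 2 against untreated was 5.49 (TMM), 5.46 (median-of-ratios) and 5.46 (DESeq2). On day 8 against day 2 ACOD1 was -5.80, -5.83 and -5.84 under the same settings, -8.22 with background subtracted, -6.12 with endogenous total scaling, -7.11 without the low-count tumours, and -7.11 to -6.22 leaving out 1 tumour in turn. On day 8 against untreated it was -0.94 with background subtracted. NOS2 on day 8 against day 2 was -3.79 to -2.38 leaving out 1 tumour, the latter without replicate A of day 2. The tumour type difference of ACOD1 was -0.19 to 0.49 leaving out 1 tumour, and below 0 without replicate G or D. In untreated tumours ACOD1 with NOS2 gave r = -0.014 with background subtracted and r = -0.39 with TMM, and NOS2 with IRF1 r = -0.066 with TMM.

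Counts of called probes depended on the settings. Day 2 against untreated gave 229 with background subtracted, 180 with sarcoma type as a covariate and 37 in nerve sheath tumours alone. After 2 doses against untreated the last 2 settings gave 56 and 0, and leaving out 1 tumour gave 152 (replicate B of 2 doses) to 286. Day 8 against day 2 gave 81 with TMM, 76 with median-of-ratios, 45 with background subtracted, 80 with sarcoma type, 0 in nerve sheath tumours alone, 67 with endogenous total scaling and 92 without the low-count tumours. Leaving out 1 tumour gave 0 to 187 there, with 0, 0 and 1 without replicates A, B and C of day 8 and 76 without replicate C of day 2. After 2 doses against day 2 the count was 6 in DESeq2, 3 without the filter, 1 in limma and 1 with sarcoma type, and 0 to 28 leaving out 1 tumour, the latter without replicate A of day 2. Day 8 against untreated gave 0 to 1. Nerve sheath tumours alone and fits without 1 tumour hold fewer samples; the cause of the other differences was not tested. Replicate letters do not pair tumours, each from another dog: over 19 same-letter pairs r was -0.21 to 0.38, with 8 over 0.1. With the replicate block IDO1 on day 2 was 11.07, IDO1, ACOD1 and NOS2 after 2 doses against day 2 -3.36, -1.75 and -1.79, and ACOD1 on day 8 against untreated 0.092.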
